A study of Mus musculus with 20 samples.

Results

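The miR-379/410 cluster is a long run of miRNA hairpins at the distal end of the imprinted Dlk1-Meg3 region of mouse chromosome 12. Its mature miRNAs were taken from a table of 281 miRNAs by the hairpin name, with both arms kept, from 39 hairpin names. The table held 37 rows for 26 of these names. They were 14 miRNAs of the 5p arm and 23 of the 3p arm, with both arms of 11 hairpins and a single arm of 15. The names without a row among the 281 were miR-299a, miR-299b, miR-1197, miR-758, miR-679, miR-1193, miR-654, miR-539, miR-3072, miR-544, miR-134, miR-453 and miR-412. No member was lost to the filter on low values used here, and the lowest member count in any library was 4 reads. The number of miRNAs that the authors list per library ran from 608 to 869, above the 281 rows given. Why a name had no row is not stated, and loss to an earlier cut on low counts was not tested.

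Small RNA of the right ventral hippocampus was sequenced from 10 mice given cannabidiol (CBD) and 10 mice given vehicle. CBD is a plant cannabinoid without the intoxicating action of tetrahydrocannabinol. It was given at 200 mg/kg per day, by intraperitoneal injection 2 times a day for 5 days, and vehicle mice were injected on the same schedule. All 20 animals were naïve wildtype males of the strain C57BL/6JOlaHsd, so no disease model was involved. Each library came from a separately numbered mouse, and the labels state neither the age of the mice nor what the vehicle contained.

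As background, a miRNA hairpin is cut into a duplex, and 1 or both of its arms are loaded into the Argonaute protein, where the seed near the 5′ end pairs with target mRNAs. The hairpins of this cluster are processed from long noncoding RNA transcribed from the maternal chromosome. In adult mice they are expressed mostly in brain, and in cultured rat neurons activity induces them through the transcription factor Mef2. Members such as miR-134, miR-329, miR-381 and miR-485 act on dendrites and synapses of cultured neurons. Mice without the cluster show changed anxiety-like and social behaviour, to which the ventral hippocampus contributes.

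The 12 sequences that follow are a selection of members named in the results, with some of their partner arms and nearest relatives. They come from RefSeq on build GRCm38.p6, are all on the plus strand of chromosome 12 and are written 5′ to 3′, with the seed (bases 2 to 8) in capitals.
miR-541-5p: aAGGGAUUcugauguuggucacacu
miR-409-5p: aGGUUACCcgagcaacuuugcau
miR-409-3p: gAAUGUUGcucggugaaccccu
miR-666-5p: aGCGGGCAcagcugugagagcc
miR-666-3p: gGCUGCAGcgugaucgccugcu
miR-376b-5p: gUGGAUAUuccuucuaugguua
miR-496a-3p: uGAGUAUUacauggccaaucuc
miR-300-3p: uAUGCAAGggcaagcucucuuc
miR-381-3p: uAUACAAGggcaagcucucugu
miR-379-3p: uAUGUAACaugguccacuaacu
miR-411-3p: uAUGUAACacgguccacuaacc
miR-667-3p: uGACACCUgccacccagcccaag

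RefSeq gave a mature sequence for 34 of the 37 members. Only miR-379-3p and miR-411-3p shared a seed, AUGUAAC, and they differ by U10C and U22C (the base of the first, its position from the 5′ end, the base of the second). A seed shared with a tabled miRNA outside the cluster was found for miR-410-3p, with miR-344d-3p. miR-300-3p and miR-381-3p differ by G4A, U21G and C22U, and the first of these lies within the seed. miR-376b-5p differs by G19U from miR-376c-5p, which had no row. The sources used here do not say how reads that match near-identical members were assigned, so the split between such pairs is uncertain. In brain, adenosines of miR-376 family hairpins are edited to inosine, and whether edited reads were counted is likewise not given.

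The 39 hairpins span 38.9 kb, chr12:109709060-109747960 in GENCODE M21 on GRCm38. The noncoding gene Mirg is annotated at chr12:109729764-109749460, so 25 hairpins lie upstream of it and 14 within it, of which 5 lie in introns and 9 touch an exon. The upstream hairpins gave 22 members, from miR-379 to miR-487b, and the hairpins within Mirg gave 15, from miR-382 to miR-410. The name of this gene therefore describes only the second group of members. miR-541-5p maps to chr12:109742422-109742446 and miR-409-5p to chr12:109743172-109743194, both in introns of Mirg, while miR-666-5p maps upstream at chr12:109717103-109717124.

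Library sizes listed by the authors ran from 242178 to 1245429 reads. CBD replicates 6 and 8 and vehicle replicate 5 stood apart by the lowest scaling factors in the deposited values, 0.714, 0.693 and 0.788. The main counts of calls and several of the main values are also given without these 3 libraries. The libraries carry a run number from 1 to 4, with 5, 6, 4 and 5 libraries, of which 3, 3, 2 and 2 came from CBD mice. The header names it only as a run. The 3 neuronal markers were all in the table and together held 10.1 to 20.04% of the tabled reads in CBD libraries and 11.5 to 17.1% in vehicle libraries. By run they held 10.4 to 19.4% in run 1, 10.1 to 13.3% in run 2, 16.2 to 17.3% in run 3 and 14.7 to 20.04% in run 4. The oligodendrocyte markers, with 3 of 3 in the table, summed to 0.0292 to 0.0838% in CBD and 0.0474 to 0.200% in vehicle libraries. Those of endothelium, with 2 of 2, summed to 0.0355 to 0.165% in CBD and 0.0557 to 0.268% in vehicle libraries, and those of smooth muscle, with 2 of 2, to 0.176 to 0.361% in CBD and 0.210 to 0.749% in vehicle libraries. Immune markers, with 2 of 5, summed to 0.218 to 1.42% in CBD and 0.268 to 2.47% in vehicle libraries. By run they summed to 0.268 to 0.797% in run 1, 0.761 to 2.47% in run 2, 0.218 to 0.604% in run 3 and 0.321 to 0.911% in run 4. Shares by run are given for neuronal and immune markers only. Markers of ependyma and choroid plexus, with 4 of 6, summed to 0.404 to 2.38% in CBD and 0.412 to 3.37% in vehicle libraries, and that of red blood cells, with 1 of 4, to 0.00876 to 0.0262% in CBD and 0.00740 to 0.0412% in vehicle libraries. The mean CBD minus vehicle difference was below 0 for all 9 tabled markers of oligodendrocytes, endothelium, smooth muscle and immune cells. It was below 0 for 2 of 3 of neurons, 1 of 4 of ependyma and choroid plexus and 0 of 1 of red blood cells. Over all miRNAs 173 of 281 differences (61.6%) were below 0, a share that ran from 48.8 to 72.6% between scalings of the libraries. The part of these markers in the differences below was not tested, and in whole tissue fewer cells of a type and less RNA per cell cannot be told apart.

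The cluster was a small part of the miRNA reads and was dominated by a single member. The 37 members held 4.67 ± 0.73% of the tabled reads in CBD libraries and 4.57 ± 0.84% in vehicle libraries (SD, n = 10 each). The range was 3.40 to 5.66% in CBD and 3.37 to 5.91% in vehicle libraries, so the groups overlapped almost fully. The 18 tabled miRNAs of the proximal part of the same imprinted region, which include miR-434-3p, held 25.5 ± 6.9% of the reads in CBD and 24.2 ± 6.5% in vehicle libraries. miR-541-5p took 42.1 ± 6.2% of the members' reads in CBD and 35.1 ± 3.3% in vehicle libraries. Without it the members' share was 2.70 ± 0.46% of the tabled reads in CBD and 2.97 ± 0.59% in vehicle libraries. Without the 3 libraries of lowest scaling factor the members' share was 4.79 ± 0.65% in CBD (n = 8) and 4.67 ± 0.83% in vehicle libraries (n = 9). These shares are descriptions and were not tested.

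Levels are given as deposited, as log2 of the reads in 1000000 of the authors' scaled library size (log2 CPM), with 0.5 added to each read count. Over all 20 libraries they ran from 5.90 for miR-666-5p, rank 279 of 281, to 14.09 for miR-541-5p, rank 10. The next most abundant members were miR-411-5p at 11.75 and miR-667-3p at 11.65, followed by miR-369-3p, miR-382-5p, miR-487b-3p, miR-323-3p, miR-410-3p, miR-411-3p and miR-376a-5p, all at 10.00 or above. The least abundant, beside miR-666-5p, were miR-376c-3p, miR-382-3p, miR-494-3p and miR-323-5p. The median member had a level of 8.02, against 8.58 over all 281 miRNAs. Members within Mirg had a median of 9.18 and those upstream of it 7.71.

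**Figure D1:**
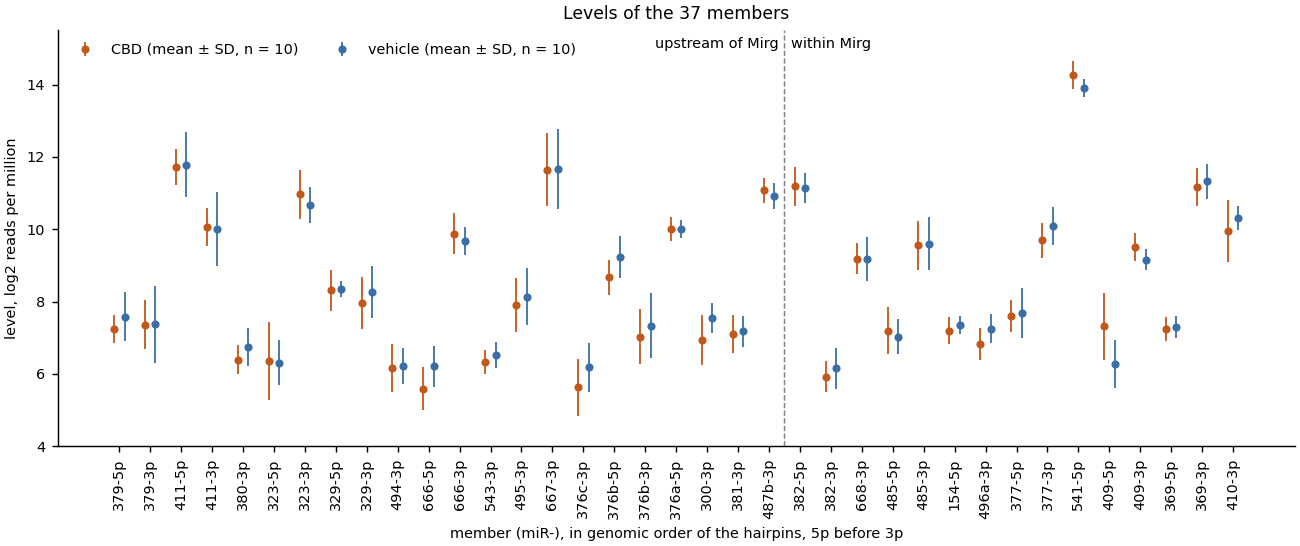
Level of each of the 37 members in log2 CPM, as the mean ± SD of 10 CBD (left) and 10 vehicle (right) libraries, in the genomic order of the hairpins with the border of Mirg dashed. The means run from about 6 for miR-666-5p to about 14 for miR-541-5p, and neighbouring hairpins differ widely in level.

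Which arm of a hairpin was the more abundant hardly varied between mice. The 3p arm was the higher one in 20 of 20 libraries for miR-323, miR-369, miR-377, miR-485 and miR-666, and the 5p arm in 20 of 20 for miR-376b, miR-382 and miR-411. The 3p arm of miR-409 was higher in 19 libraries. The exceptions were miR-329, with the 5p arm higher in 12 libraries and the 3p arm in 8, and miR-379, with 9 and 11. The balance of miR-382 was the most unequal, at 5.26 ± 0.73 in CBD and 5.00 ± 0.57 in vehicle libraries (log2 5p minus 3p, SD, n = 10 each).

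The comparison of CBD with vehicle asks whether miRNA levels differed after 5 days of treatment in naïve mice. No member passed the adjusted threshold: 0 of 37 had an adjusted p under 0.05 in limma, as had 0 of 281 miRNAs (0%), and the lowest adjusted p was 0.470. At an unadjusted p under 0.05 there were 6 of 37 members (16.2%), beside 22 of 281 miRNAs (7.83%). Of these 6 members, 2 were higher with CBD (background 2.49%) and 4 were lower (background 5.34%). Over the whole cluster 25 of 37 differences were below 0 (67.6%), as were 173 of 281 (61.6%), and the median difference was -0.07 for the members and -0.08 for all miRNAs. Both scale with the library normalisation: centring each library on its median miRNA left 16 of 37 differences below 0 and gave 3 higher and 1 lower member, while over all miRNAs 137 of 281 (48.8%) were then below 0 and 13 were higher and 4 lower. By median the cluster as a whole stood where the other miRNAs stood, and its members spread from -0.62 for miR-666-5p to 1.05 for miR-409-5p.

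**Figure D2:**
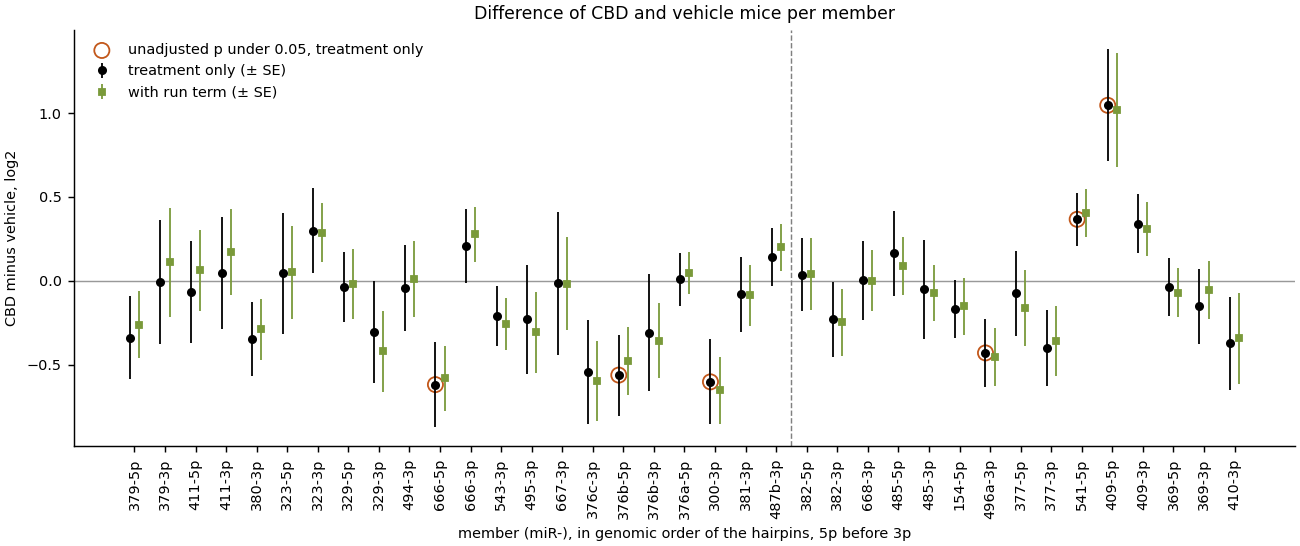
CBD minus vehicle difference of each member on the log2 scale (± SE), with treatment as the only term (black) and with run added (green), in the genomic order of the hairpins with the border of Mirg dashed. The 6 members with an unadjusted p under 0.05 are circled: miR-409-5p and miR-541-5p lie above 0, and miR-666-5p, miR-300-3p, miR-376b-5p and miR-496a-3p below.

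These 6 members were spread along the cluster, 3 of them upstream of Mirg and 3 within it. Without CBD replicates 6 and 8 and vehicle replicate 5, only 2 of the 6 kept an unadjusted p under 0.05, miR-409-5p at 1.17 and miR-376b-5p at -0.62, beside 21 of 281 miRNAs. The other 4 were then at 0.30 for miR-541-5p, -0.46 for miR-666-5p, -0.39 for miR-300-3p and -0.35 for miR-496a-3p. With weights estimated for each library (limma array weights) 6 of 37 members had an adjusted p under 0.05, as had 24 of 281 miRNAs, and with these weights and a run term together 0 had. The 6 with weights were miR-409-5p, miR-376b-5p, miR-666-5p, miR-496a-3p, miR-380-3p and miR-377-3p. The weights were uneven between runs. They were highest for the 3 vehicle libraries of run 4, at 3.70, 4.62 and 3.94, against 2.13 and 1.46 for the 2 CBD libraries of run 4. Without a run term the weighted fit thus mixes treatment with run, and the part of run in its calls was not tested. With run as a further term 7 members had an unadjusted p under 0.05 (18.9%), beside 42 of 281 (14.9%). Of these members 2 were higher (background 4.27%) and 5 lower (background 10.7%), and 22 of 37 differences were below 0 (background 61.2%). The additional member was miR-376c-3p, at -0.60 (SE 0.24, unadjusted p = 0.0198). Within runs 1 to 4 its difference was -1.19, -0.80, -0.80 and 0.42, and its lowest library held 4 reads. With treatment as the only term and without CBD replicates 6 and 8 and vehicle replicate 5, it was at -0.41 (SE 0.30).

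miR-409-5p had the largest difference of any member. Its level ran from 6.25 to 9.32 with a median of 7.30 in CBD libraries, and from 5.13 to 7.30 with a median of 6.07 in vehicle libraries. In reads, which are not scaled for library size, the median was 116.5 in CBD and 57.0 in vehicle libraries. All 10 CBD libraries lay above the vehicle median, 5 of them above every vehicle library, and 6 vehicle libraries lay below every CBD library, so the groups overlapped only in part. The highest value, 9.32 in CBD replicate 9, stood well above the next, 7.91 in CBD replicate 2. The groups differed by 1.05 (SE 0.33) at an unadjusted p of 0.00463, or 0.470 after limma's adjustment, and in the 20 fits that omitted 1 library the value stayed between 0.82 and 1.16 with an unadjusted p of at most 0.0106. Within runs 1 to 4 it was 0.11, 0.63, 1.53 and 1.98. The more abundant arm of the same hairpin, miR-409-3p, ran from 8.87 to 10.15 with a median of 9.52 in CBD and from 8.62 to 9.66 with a median of 9.24 in vehicle libraries. Its difference was 0.34 (SE 0.18, unadjusted p = 0.0658), so the 5p arm stood further from 0 than its partner.

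miR-541-5p, the most abundant member, was the other of these 6 with a higher mean in CBD libraries. It ran from 13.51 to 14.66 with a median of 14.45 in CBD and from 13.41 to 14.30 with a median of 13.90 in vehicle libraries. Of the 10 CBD libraries 7 lay above every vehicle library, while CBD replicates 1, 3 and 10 lay among the vehicle values. The groups differed by 0.37 (SE 0.16) at an unadjusted p of 0.0301, or 0.470 after limma's adjustment. Within runs 1 to 4 it was 0.39, 0.48, 0.74 and 0.04. Its unadjusted p was 0.0624 without vehicle replicate 2, and was above 0.05 also without CBD replicate 7 or CBD replicate 9. Its hairpin was measured by this arm alone, and with at least 2791 reads in every library it was the member least affected by counting error.

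miR-666-5p, the least abundant member, had a lower mean with CBD, and its partner arm a higher one. It ran from 4.26 to 6.30 with a median of 5.64 in CBD and from 5.23 to 6.95 with a median of 6.42 in vehicle libraries. In reads, which are not scaled for library size, the median was 31.0 in CBD and 60.5 in vehicle libraries. All 10 CBD libraries lay below the vehicle median level, and 6 vehicle libraries lay above every CBD library. The groups differed by -0.62 (SE 0.25) at an unadjusted p of 0.0232, or 0.470 after limma's adjustment, with -0.19, -0.51, -0.62 and -1.02 within runs 1 to 4. Without CBD replicate 8, its lowest library, the unadjusted p was 0.0514. For miR-666-3p the difference was 0.21 (SE 0.22, unadjusted p = 0.357), with levels of 9.16 to 10.95 in CBD and 8.99 to 10.04 in vehicle libraries.

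The other 3 members were miR-376b-5p and miR-300-3p, upstream of Mirg, and miR-496a-3p, in an intron of it. miR-376b-5p ran from 7.61 to 9.22 with a median of 8.84 in CBD and from 8.38 to 10.17 with a median of 9.20 in vehicle libraries. In 5 vehicle libraries it was above every CBD library, all 3 of run 4 among them. Its difference was -0.56 (SE 0.24, unadjusted p = 0.0287), with -0.59, -0.11, -0.43 and -0.87 within runs 1 to 4. miR-300-3p ran from 5.49 to 7.77 with a median of 7.10 in CBD and from 6.96 to 8.17 with a median of 7.51 in vehicle libraries. Its lowest value was in CBD replicate 6, at 10 reads, and without that library the unadjusted p of 0.0256 became 0.0550. Its difference was -0.60 (SE 0.25), with -0.66, -1.16, -0.51 and -0.12 within runs. miR-496a-3p ran from 5.86 to 7.38 with a median of 6.85 in CBD and from 6.50 to 7.58 with a median of 7.43 in vehicle libraries, and all 10 CBD libraries lay below the vehicle median. The groups differed by -0.43 (SE 0.20) at an unadjusted p of 0.0456, or 0.578 after limma's adjustment, with -0.31, -0.63, -0.06 and -0.70 within runs, and it kept an unadjusted p under 0.05 in only 7 of the 20 fits that left out 1 library.

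**Figure D3:**
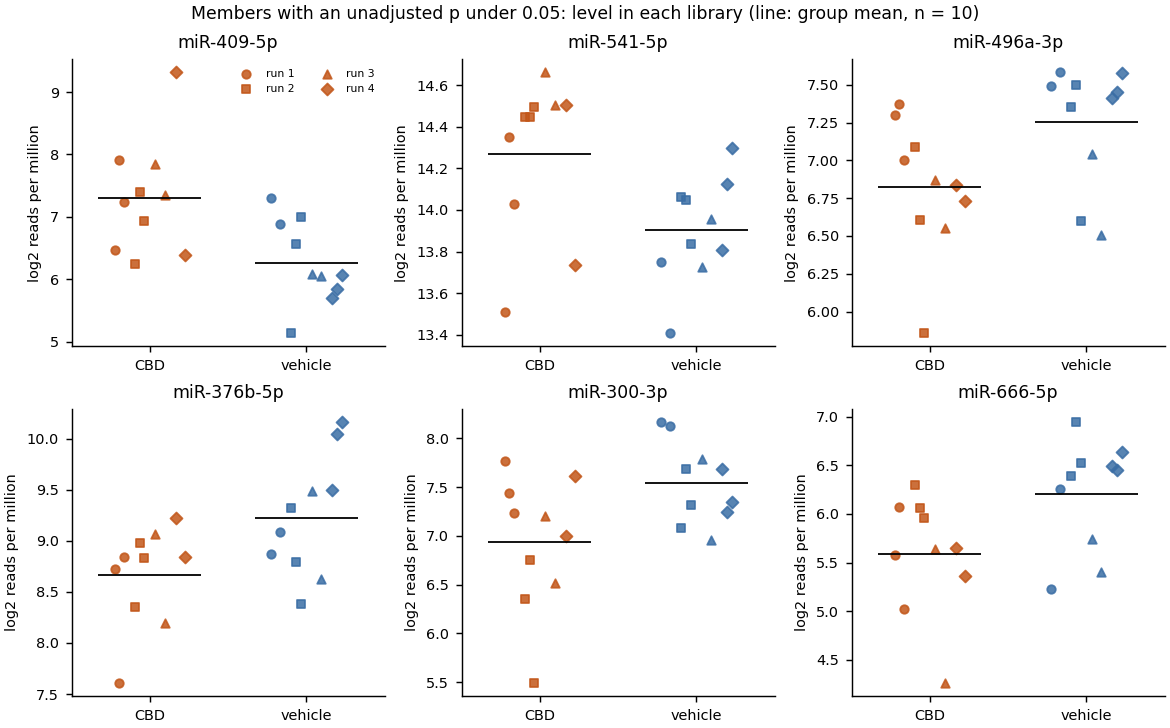
Level of the 6 members with an unadjusted p under 0.05 in each library, in log2 CPM, with CBD left of vehicle, the run as the symbol and the group mean of 10 libraries as a line. The groups overlap in every panel; for miR-409-5p, 5 CBD libraries lie above every vehicle library.

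Relatives of these members by sequence or name were compared by their values alone. miR-381-3p, which acts in activity-dependent dendrite growth and differs from miR-300-3p at 3 bases, had a difference of -0.08 (SE 0.22, unadjusted p = 0.724), with 6.23 to 7.72 in CBD and 6.14 to 7.76 in vehicle libraries. In the miR-376 family the differences were -0.54 (SE 0.31) for miR-376c-3p, -0.31 (SE 0.35) for miR-376b-3p and 0.01 (SE 0.16) for miR-376a-5p. Without vehicle replicate 2 the value of miR-376b-3p was -0.12. miR-377-3p, from a hairpin within Mirg and not a relative of the 6, had -0.40 (SE 0.23, unadjusted p = 0.0904), and none of its 10 CBD libraries lay above the vehicle median. The differences between relatives were not tested.

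A list of 22 members picked by name for neuronal roles or related seeds, with earlier results known, had 19 in the table. Of those 19, 3 had an unadjusted p under 0.05, beside 6 of all 37 members (16.2%) and 22 of 281 miRNAs (7.83%), and these were miR-409-5p, miR-541-5p and miR-300-3p. miR-485-5p, which limits dendritic spines in cultured hippocampal neurons, had a difference of 0.17 (SE 0.25). miR-485-3p had -0.05 (SE 0.29). miR-329-3p, a member induced by activity in cultured neurons, had -0.30 (SE 0.30), miR-495-3p had -0.23 (SE 0.32), miR-410-3p had -0.37 (SE 0.28) and miR-379-5p had -0.34 (SE 0.25). Leaving out 1 library moved several of these values: without CBD replicate 8 miR-410-3p was at -0.13, and without CBD replicate 6 miR-495-3p was at -0.03, miR-329-3p at -0.14 and miR-485-5p at 0.09. None of these 6 passed an unadjusted p of 0.05, and the standard errors leave room for differences of either sign.

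The balance of the arms within a hairpin, log2 5p minus 3p, does not depend on the scaling of the library. Across 62 hairpins of the table with both arms, 11 of them in the cluster, 0 had an adjusted p under 0.05 (0%) in limma. At an unadjusted p under 0.05 there was 1 of 11 member hairpins, beside 3 of 62 (4.84%). This hairpin was miR-666, whose balance ran from -6.69 to -3.28 with a mean of -4.29 ± 0.97 in CBD libraries and from -4.61 to -2.73 with a mean of -3.47 ± 0.58 in vehicle libraries (SD, n = 10 each). The groups differed by -0.82 (SE 0.34) at an unadjusted p of 0.0215, or 0.755 after limma's adjustment, with -0.55, -0.68, -1.16 and -1.13 within runs 1 to 4. The next was miR-409, with a balance of -2.19 ± 1.06 in CBD and -2.90 ± 0.61 in vehicle libraries and a difference of 0.71 (SE 0.36, unadjusted p = 0.0583). Its balance ran from -3.18 to 0.18 in CBD and from -4.07 to -2.01 in vehicle libraries. With the run term miR-666 was again the 1 of 11 with an unadjusted p under 0.05 (background 9.68%), at -0.86. Between runs 3 of 11 member hairpins, miR-369, miR-376b and miR-666, had an adjusted p under 0.05, beside 25 of 62 (40.3%).

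More members passed the test between runs than between treatments. In limma 20 of 37 members (54.1%) differed between the 4 runs at an adjusted p under 0.05, beside 135 of 281 miRNAs (48%). Of the 22 members upstream of Mirg 16 passed, and of the 15 within it 4. The smallest p was that of miR-485-3p, with mean levels of 9.39, 10.45, 8.99 and 9.19 in runs 1 to 4 (adjusted p = 0.000672). miR-667-3p had 11.18, 12.88, 11.02 and 11.16 (adjusted p = 0.00261), with values of 11.45 to 13.73 in run 2. miR-485-5p, miR-323-3p and miR-668-3p were also highest in run 2. The opposite pattern was that of miR-376b-3p, with 7.97, 6.32, 7.02 and 7.56 (adjusted p = 0.00261), and of miR-495-3p, with 8.81, 7.38, 7.89 and 8.09 (adjusted p = 0.0129), both lowest in run 2. Without run 2 there were 4 members that passed, beside 40 of 281 miRNAs (14.2%), and without run 1 there were 10, beside 94 of 281 (33.5%). Without CBD replicates 6 and 8 and vehicle replicate 5 there were 14, beside 100 of 281 (35.6%).

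The deviation of members in run 2 went with their content of G and C. The GC content of the 34 members with a sequence ran from 23.8% for miR-369-3p to 72.7% for miR-323-5p, with a median of 45.5%, against 50.0% for 213 other miRNAs. Across members, which share libraries, the deviation of run 2 from the mean of the runs went with GC content (Pearson r = 0.62, Spearman rho = 0.56). Across the other miRNAs r was 0.57. In run 4 the relation had the opposite sign, at r = -0.57 for members and -0.55 for the others. In runs 1 and 3 r was -0.21 and -0.16 for members and 0.02 and -0.32 for the others. Deviations are from the mean of the 4 runs, so a rise with GC in run 2 entails a fall over the other runs together. Without the 3 libraries of lowest scaling factor r over the members was 0.60 in run 2 and -0.49 in run 4. The relation in run 2 thus appeared in members and other miRNAs alike. GC content went with the CBD minus vehicle difference at r = 0.23 and rho = 0.41 over the members and r = 0.33 and rho = 0.34 over the others, and its part in those differences was not tested.

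**Figure D4:**
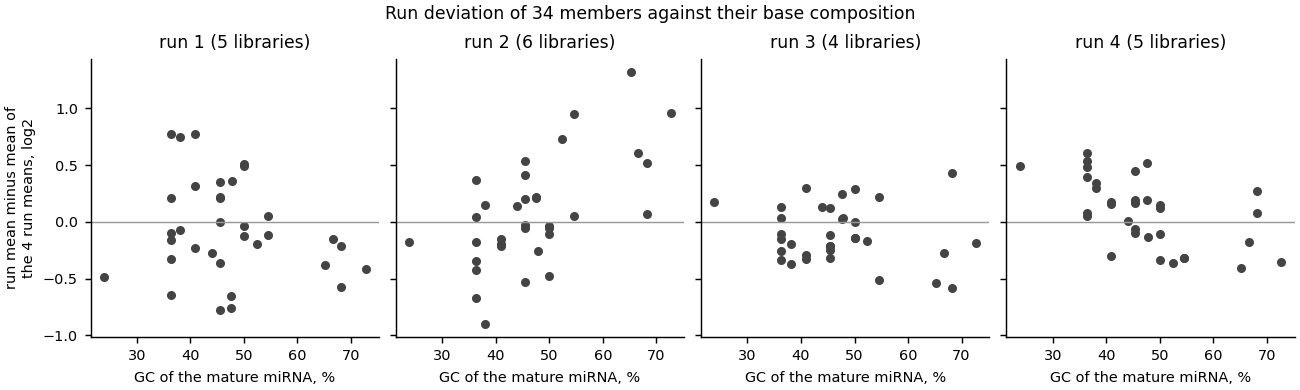
Deviation of each run's mean level from the mean of the 4 run means (log2), for the 34 members with a RefSeq sequence, against the GC content of the mature miRNA in percent. In run 2 the points rise with GC (r = 0.62), with miR-667-3p highest, and in run 4 they fall (r = -0.57).

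A treatment difference that varied between runs was tested by the interaction of treatment and run. With all 20 libraries no member passed after adjustment (0 of 37, 0% of 281, lowest adjusted p 0.235), and 3 of 37 had an unadjusted p under 0.05 (8.11%), beside 14 of 281 (4.98%). All 3 came from the first hairpins of the cluster, miR-379 and miR-411, but the remaining arm, miR-379-5p, had an interaction unadjusted p of 0.291. miR-379-3p and miR-411-3p differ at only 2 bases, and the split of reads between them is uncertain. For miR-379-3p the difference was 1.65, 0.64, -0.92 and -1.23 within runs 1 to 4 (interaction unadjusted p = 0.000835). For miR-411-3p it was 1.55, 0.24, -0.33 and -0.87 (unadjusted p = 0.00187), and for miR-411-5p 1.18, 0.25, -0.54 and -0.79 (unadjusted p = 0.00877). In run 1 each of the 3 CBD libraries lay above both vehicle libraries for these members, and in run 4 each of the 2 CBD libraries lay below all 3 vehicle libraries. Without CBD replicates 6 and 8 and vehicle replicate 5, none of which is in run 1 or run 4, the interaction had an adjusted p of 0.0347 for miR-379-3p and 0.0412 for miR-411-3p in limma. These were the only 2 of 281 miRNAs (0.712%) that passed in that fit, which was chosen after seeing the data and has a single CBD library in run 3. Pooled over all runs and libraries the differences were -0.01 (SE 0.37) for miR-379-3p, 0.05 (SE 0.34) for miR-411-3p and -0.07 (SE 0.30) for miR-411-5p.

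**Figure D5:**
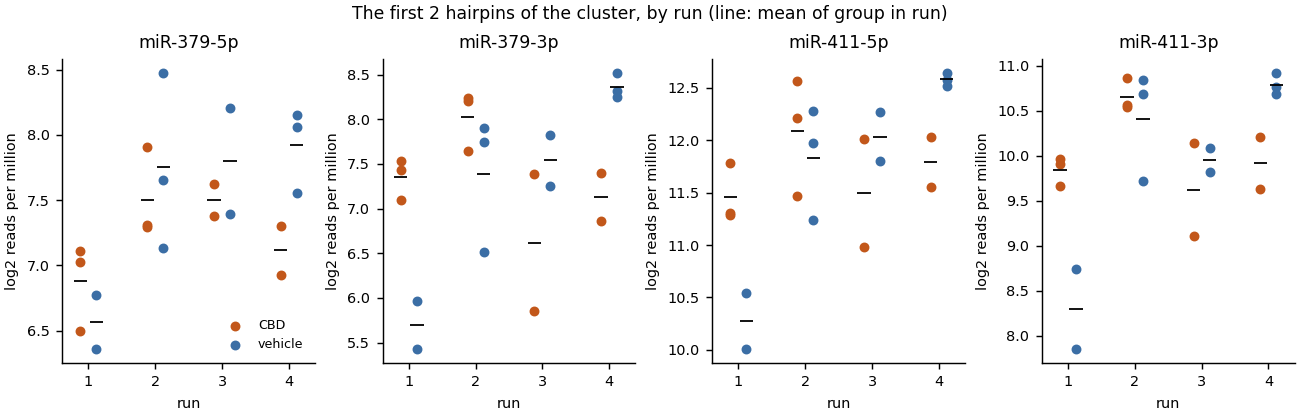
Level of the arms of miR-379 and miR-411 in log2 CPM by run, with CBD left of vehicle in each run and the mean of each group as a line. For miR-379-3p, miR-411-5p and miR-411-3p the CBD libraries are above the vehicle libraries in run 1 and below them in run 4.

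miR-379-3p and miR-411-3p, the pair with a common seed, also had the highest correlation of any pair of members across libraries, although their levels lay apart. These sequences differ at only 2 bases and the split of reads between them is uncertain. The part of that split in the correlation was not tested. The Pearson r of miR-379-3p and miR-411-3p was 0.94 and their Spearman rho 0.92 over 20 libraries (permutation tests, p = 1e-05 each, the smallest that 100000 permutations can give, adjusted p = 0.000979 and 0.00184 over 39340 pairs of miRNAs). Without the 2 libraries farthest from the median of miR-379-3p r was 0.92, and with the run means removed 0.94. In this and all later pairs the 2 farthest libraries were chosen by a single miRNA of the pair. Libraries extreme only in the other miRNA were therefore kept. Without the 3 libraries of lowest scaling factor it was 0.96. miR-411-5p, which has another seed, went with miR-379-3p at r = 0.90 and rho = 0.87 (permutation tests, adjusted p = 0.000979 and 0.00184, r = 0.84 without the 2 farthest libraries). The 5p arm of miR-379 went with its own 3p arm at only r = 0.49 and rho = 0.45 (permutation tests, p = 0.0277 and 0.0494, adjusted p = 0.115 and 0.171, r = 0.49 without the 2 farthest libraries).

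As a whole the members did not vary as 1 unit. Over the 666 pairs of members the median Pearson r was 0.01 and 50.9% of pairs were positive. Of these pairs 123 (18.5%) had an adjusted p under 0.05 by permutation, 73 positive and 50 negative, beside 5715 of 39340 pairs of all miRNAs (14.5%). The 11 pairs of arms of the same hairpin had a median r of 0.25, and 89 pairs of neighbouring hairpins, 1 to 3 apart, 0.02. Some arms of the same hairpin went in opposite directions, with r of -0.48 for miR-369, -0.35 for miR-377, -0.26 for miR-329 and -0.21 for miR-666. Others had a low or moderate r, of 0.09 for miR-382, 0.25 for miR-376b, 0.27 for miR-409 and 0.49 for miR-379. Arms of the same hairpin went together most closely for miR-411 (r = 0.89, rho = 0.79, adjusted p = 0.000979 and 0.00530 by permutation), miR-323 (r = 0.88, rho = 0.82, adjusted p = 0.000979 and 0.00291) and miR-485 (r = 0.81, rho = 0.87, adjusted p = 0.00138 and 0.00184). Without the 2 farthest libraries these were r = 0.76, 0.80 and 0.77. The permutations did not keep runs together, and with the run means removed the values were r = 0.86 for miR-411, 0.75 for miR-323 and 0.64 for miR-485. With the 2 farthest libraries left out as well they were 0.79, 0.63 and 0.44. Within single runs the arms of miR-323 reached r = -0.46 in run 4 and those of miR-485 r = 0.19 in run 2, over 5 and 6 libraries. The strongest negative pair was miR-377-5p with miR-411-5p, at r = -0.87 and rho = -0.84 (permutation tests, adjusted p = 0.000979 and 0.00327), or r = -0.80 without the 2 farthest libraries and -0.82 with the run means removed. Without the 3 libraries of lowest scaling factor r was -0.85 for this pair. For the arms of miR-411, miR-323 and miR-485 it was then 0.88, 0.83 and 0.79.

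In the authors' deposited table, whose mean levels are not those of the 20 columns, 0 of 37 members had an adjusted p under 0.05. Its lowest adjusted p among members was 0.0685, for miR-409-5p, miR-666-5p and miR-300-3p. At an unadjusted p under 0.05 the authors' deposited table had 8 of 37 members (21.6%), 2 with a positive and 6 with a negative log2 fold change, beside 66 of 281 miRNAs (23.5%). These 8 in the authors' deposited table were the 6 members above together with miR-376c-3p and miR-377-3p. Their share among the members was thus close to that among all miRNAs of the table.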

How the data were processed

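Small RNA from the right ventral hippocampus of 10 CBD and 10 vehicle mice was sequenced after Trizol extraction and library preparation with the Illumina TruSeq small RNA kit and Pippin Prep purification, per the labels' protocols. Per the submitters' processing notes, build mm10, edgeR and limma were used; the sources used here give neither their role nor the aligner or miRNA set. The authors deposited log2 values for 281 miRNAs; each equals log2((n + 0.5) / (L + 1) × 1000000) for a whole read number n and a scaled library size L, and whole reads were recovered for 100% of values in every library (relative tolerance 1e-06). A second deposited table lists library size and run, and the sources used here do not say what a run is. The authors' comparison table gives log2 fold changes and p-values per the file headers.

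limma 3.58.1 in R 4.3.3 was fitted to the deposited log2 values of the whole table, with 1 term for treatment and a variance trend. Each difference is CBD minus vehicle, with two-sided tests and the Benjamini-Hochberg adjustment over 281 miRNAs, or 62 hairpins for arm balance. Runs were tested by an F test with treatment in the model, and treatment by run by an F test of the interaction. Requiring values above 0 in 10 libraries removed 0 miRNAs. Count tests were not used, since the deposited unit is log2. The scripts were tested on simulated data. Pair correlations used 100000 permutations, adjusted over 39340 pairs. The alternatives were other filters, scalings, variance models, a run term, a Wilcoxon test, and libraries or runs left out. Leaving out 3 libraries of low scaling factor was added after seeing the data. Reads are not independent molecules, so read numbers give counting error only.

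The members and lists were chosen with earlier results of these data known. Members named with values were those with an unadjusted p under 0.05, the 10 highest and 5 lowest in level, 22 fixed by name, partner arms, the 5 with the smallest p between runs and the 3 hairpins with the smallest p for arm balance by treatment and by run, 33 in all. Any other member named, such as miR-377-3p, miR-377-5p and miR-668-3p, was chosen after its values were seen.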

Additional observations from a re-analysis of the deposited data

Results flagged for a closer look

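The levels of the 33 named members, the balances of 11 hairpins and the share of reads held by the members, each in CBD and in vehicle mice, made 90 groups of 10 libraries. Of these 8 held a library far from the nearest of the others, and chance flags about 1 in 20. Low levels stood apart for miR-329-5p at 6.92 and miR-410-3p at 7.74, both in CBD replicate 8, for miR-495-3p at 6.15 in CBD replicate 6, and for miR-381-3p at 6.14 in vehicle replicate 5. These are the 3 libraries of lowest scaling factor. Among arm balances (log2 5p minus 3p), CBD replicate 8 stood apart for miR-379 at 1.53 and miR-666 at -6.69, CBD replicate 9 for miR-409 at 0.18 and CBD replicate 4 for miR-411 at 0.61.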

How the results depend on the processing

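The count of 6 members with an unadjusted p under 0.05 was 3 with quantile normalisation and 10 with array weights. Without the 3 libraries of lowest scaling factor it was 2. Beside this, 22 of 281 miRNAs became 19, 57 and 21 in the same order. In leave-one-out fits there were 4 to 7 members, beside 16 to 33 of 281 miRNAs. The count of 0 after adjustment was 6 with array weights, beside 24 of 281, and 0 in each leave-one-out fit and with run term and array weights together. The 20 members that differed between runs became 10 without run 1 and 4 without run 2, beside 94 and 40 of 281. In leave-one-out fits there were 13 to 22, beside 98 to 159 of 281. For arm balance between treatments the count of 1 was 4 with array weights and 3 with run term and array weights. It was 2 without run 1, 0 without run 2 and 0 without run 4. Beside this, 3 of 62 hairpins became 12, 11, 5, 3 and 1 in the same order. Leave-one-out fits gave 1 to 2 member hairpins (0 to 0 after adjustment), beside 1 to 6 of 62 before adjustment. Between runs the 3 hairpins became 6 with array weights, beside 25 of 62 that became 43. Leave-one-out fits gave 3 to 4 member hairpins, beside 17 to 36 of 62. The count of 0 for treatment by run was 2 without the 3 libraries of lowest scaling factor. The share held by the members was 2.70% in CBD and 2.97% in vehicle libraries without the most abundant member, by construction, and 6.04% in CBD and 5.75% in vehicle libraries with miR-434-3p left out of the total. The cause of the other changes was not tested. No paired analysis was possible because the sample names are mouse numbers that the groups do not share. Of 33 named members 17 kept the sign of their difference in every setting, and the 16 that changed it had an unadjusted p of at least 0.357. 

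With array weights the difference was -0.23 for miR-323-5p, 0.084 for miR-329-5p, -0.12 for miR-376a-5p, 0.039 for miR-381-3p, -0.19 for miR-382-5p, -0.42 for miR-411-3p, 0.018 for miR-495-3p and -0.014 for miR-666-3p. With each library centred on its median miRNA the difference was 0.044 for miR-329-5p, 0.042 for miR-369-5p, 0.072 for miR-379-3p, 5.19e-06 for miR-381-3p, 0.015 for miR-411-5p, 0.030 for miR-485-3p, 0.039 for miR-494-3p and 0.065 for miR-667-3p. With centring on the median of the non-members the difference was 0.015 for miR-329-5p, 0.013 for miR-369-5p, 0.043 for miR-379-3p, 0.00078 for miR-485-3p, 0.010 for miR-494-3p and 0.036 for miR-667-3p. With median-of-ratios size factors the difference was 0.012 for miR-379-3p and 0.0053 for miR-667-3p. With quantile normalisation the difference was 0.038 for miR-329-5p, 0.029 for miR-369-5p, 0.017 for miR-379-3p and 0.031 for miR-485-3p. Rescaled to the tabled total the difference was -0.032 for miR-323-5p, -0.067 for miR-376a-5p, -0.038 for miR-382-5p and -0.028 for miR-411-3p. With the run term the difference was 0.11 for miR-379-3p, 0.064 for miR-411-5p and 0.012 for miR-494-3p. With run term and array weights the difference was -0.21 for miR-323-5p, 0.12 for miR-329-5p, 0.0015 for miR-369-3p, 0.12 for miR-379-3p, 0.035 for miR-381-3p, -0.23 for miR-382-5p, 0.11 for miR-411-5p and -0.040 for miR-485-5p. Without run 1 the difference was 0.023 for miR-329-5p and -0.29 for miR-411-3p. Without run 2 the difference was -0.017 for miR-323-5p, 0.064 for miR-369-5p, -0.017 for miR-376a-5p, 0.024 for miR-381-3p, -0.041 for miR-382-5p, -0.035 for miR-411-3p and 0.071 for miR-485-3p. Without run 3 the difference was -0.019 for miR-323-5p, 0.10 for miR-329-5p, -0.037 for miR-376a-5p, 0.22 for miR-379-3p, 0.00070 for miR-381-3p, -0.11 for miR-382-5p and 0.053 for miR-411-5p. Without run 4 the difference was 0.47 for miR-379-3p, 0.26 for miR-411-5p, 0.21 for miR-494-3p and 0.18 for miR-667-3p. Without the 3 libraries of lowest scaling factor the difference was -0.16 for miR-323-5p, 0.042 for miR-329-5p, 0.018 for miR-369-5p, -0.12 for miR-376a-5p, -0.20 for miR-382-5p, -0.051 for miR-666-3p and 0.00052 for miR-667-3p. In leave-one-out fits the differences that changed sign ran from -0.17 to 0.22 for miR-323-5p, -0.10 to 0.12 for miR-329-5p, -0.11 to 0.0082 for miR-369-5p, -0.052 to 0.057 for miR-376a-5p, -0.22 to 0.16 for miR-379-3p, -0.20 to 0.017 for miR-381-3p, -0.11 to 0.10 for miR-382-5p, -0.19 to 0.15 for miR-411-3p, -0.26 to 0.030 for miR-411-5p, -0.21 to 0.082 for miR-485-3p, -0.13 to 0.064 for miR-494-3p and -0.24 to 0.21 for miR-667-3p. For members under about 100 reads, depth limits the precision of a single library.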
